A study of Mus musculus with 18 samples.

Results

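The genes described here are 44 markers of macrophages and other leukocytes, followed in cultures of heart and lung fibroblasts and endothelial cells. They were taken as a list of symbols chosen with earlier results of these data known. All 44 were found among the 35727 mouse gene IDs of the count table. Counts of calls set beside shares of all genes are therefore descriptions. The study holds 18 mouse libraries in 6 groups of 3, all at day 7, and was designed to compare organ-specific endothelial identity between groups. Fibroblasts (titled as control fibroblasts), native endothelial cells (EC) and cells labelled iEC were each taken from heart and from lung. The iEC libraries are titled SEG, a term that the labels do not explain, and iEC is not spelled out either. Every group was kept in EGM2 medium and sequenced as mRNA libraries. The labels name no strain, age, sort or purity for any group, and nothing says whether replicates were grown or collected separately. The p-values below therefore reflect only how far these libraries differ from each other, which may be technical.

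Macrophages are phagocytes that live in most organs and clear debris and microbes. The transcription factor PU.1, made from Spi1, and the receptor for colony-stimulating factor 1, Csf1r, set up and maintain the lineage. Lung holds alveolar macrophages, which take up surfactant in the airspaces and carry genes such as Chil3, Marco and Ear2, and interstitial macrophages in the tissue; heart holds resident macrophages that carry complement C1q genes and scavenger receptors. In bulk RNA, fewer cells of a type and less RNA per cell cannot be told apart.

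Library totals ranged from 17747632 to 23775372 estimated counts. The labels were checked with 10 endothelial and 9 fibroblast markers, whose summed levels are given as CPM, counts scaled to the library total. The endothelial sum was 236 ± 12.9 CPM in heart fibroblasts, 2302 ± 77.2 in heart iECs, 1788 ± 65.4 in heart ECs, 22.2 ± 3.19 in lung fibroblasts, 2320 ± 160.0 in lung iECs and 3016 ± 135 in lung ECs (mean ± SD, n = 3). In iECs this sum rested largely on Erg, an endothelial transcription factor, and Cdh5, VE-cadherin: Erg read 1058, 1061 and 1287 CPM in lung iECs against 92.7, 82.8 and 98.1 in lung ECs. Pecam1, the junction protein CD31, read 8.58, 8.35 and 6.59 CPM in lung iECs against 614, 563 and 619 in lung ECs. Of the 10 markers, 8 were lower and 2 higher in lung iECs than in lung ECs, and 5 were lower and 2 higher in heart iECs than in heart ECs. The fibroblast sum was 26791 ± 674, 18729 ± 818, 20044 ± 373, 39245 ± 3972, 14724 ± 2332 and 6795 ± 870.2 CPM in the same order, so fibroblast markers were present in every EC group. The part of these cell markers in the results below was not tested. In each lung group 1 library stood apart: replicate 3 of lung iECs differed from replicate 2 with a chi-squared of 45.0 per degree of freedom, replicate 3 of lung ECs differed from replicate 2 with 72.6, and replicate 1 of lung fibroblasts differed from replicate 2 with 52.0, while pairs of heart iECs gave 4.97 to 7.00.

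Summed over the 44 genes, the markers took up a small share of heart libraries and a larger one of lung libraries. The sums were 371, 328 and 369 CPM in heart fibroblasts, 488, 531 and 554 CPM in heart iECs, and 546, 651 and 532 CPM in heart ECs. In lung they were 2806, 2420 and 2348 CPM in fibroblasts, 7411, 5660 and 8824 CPM in iECs, and 21652, 21366 and 18605 CPM in ECs. The 3 lung groups did not overlap with each other or with any heart group, whereas heart iECs and heart ECs overlapped. As a share of all counts, the means were 0.0356% ± 0.00241 in heart fibroblasts, 0.0524% ± 0.00334 in heart iECs, 0.0577% ± 0.00651 in heart ECs, 0.252% ± 0.0246 in lung fibroblasts, 0.730% ± 0.159 in lung iECs and 2.05% ± 0.168 in lung ECs (SD, n = 3). The mean sum in lung ECs was 8.14 times that in lung fibroblasts and 2.81 times that in lung iECs, and it was 35.6 times that in heart ECs. In fibroblasts the mean lung sum was 7.09 times the heart sum. These sums carry no test, since the genes were chosen with results known.

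**Figure D1:**
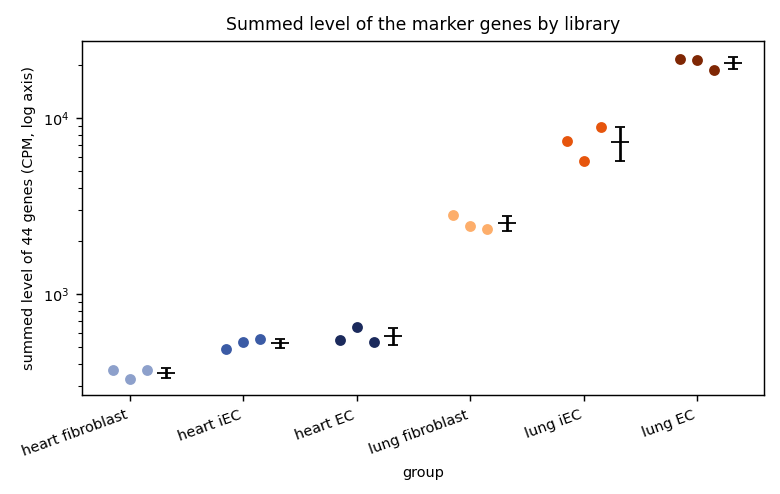
Summed level of the 44 marker genes (CPM, log axis) in each of 18 libraries, by group; points are replicates 1 to 3 from left to right, and the black mark with its bar beside them is the mean ± SD. Heart libraries lie between 328 and 651 CPM, and lung libraries between 2348 and 21652 CPM with the 3 lung groups apart.

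Lung ECs carried more of every marker than lung fibroblasts did. All 44 genes passed the test as higher in lung ECs, against 29.3% of the 14864 genes tested (an adjusted p under 0.05 in edgeR), with a median log2 change of 2.74 against 0.00 over all genes and a range of 1.18 to 5.65. A log2 change is printed with its SE after ± (3 libraries a group), and a negative one is a fall. In lung iECs 39 of 44 were higher than in lung fibroblasts, against 25.9% of all genes, with a median of 1.54 against 0.00. In neither comparison was a member called lower, by edgeR at an adjusted or an unadjusted p under 0.05 (0 genes) or by DESeq2 (0 genes), against 28.7% of all genes in ECs and 24.7% in iECs. The 5 not called were the alveolar genes Chil3, Mcemp1 and Ear2, the lipid receptor Trem2 and the lysosomal nuclease Pld4. Between the cell types of lung, 38 of 44 were lower in iECs than in ECs, against 23% of all genes, with a median of -1.27. None was called higher by edgeR or by DESeq2 (22.2% of all genes), and 1 gene, Clec7a, was higher at an unadjusted p under 0.05. The comparisons with lung fibroblasts share those 3 libraries, so their counts are not independent. Of the 44 genes, 43 followed the order of means lung fibroblast, lung iEC, lung EC, and 43 were highest in lung ECs. The shares of all genes in that order, or highest in lung ECs, were not counted.

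In heart the markers did not move as one. Heart iECs had 11 genes higher and 3 lower than heart fibroblasts, against 26% and 24.6% of all genes, with a median log2 change of 0.28 (0.31 with the 2 genes that had no count in heart iECs at their bound). The 3 lower genes were Cd68, Cd14 and Itgb2; their number was 1 without heart iEC replicate 3. Heart ECs had 16 genes higher and 7 lower than heart fibroblasts, against 24.2% and 23.3% of all genes, with a median of 0.36. The 7 lower genes were C1qa, C1qb, C1qc, Siglec1, Ctss, Pld4 and Fcgr3. Directly compared, heart iECs had 12 genes higher and 14 lower than heart ECs, against 24.5% and 24.4% of all genes, with a median of 0.03 (0.16 with genes without a count at their bound). The 11 of 44 genes higher in heart iECs are close to the share among all genes.

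Between organs, lung was the higher side for nearly every marker. Lung fibroblasts had 42 of 44 higher than heart fibroblasts (24.6% of all genes), with a median log2 difference of 2.51, and Cd14 and Cd163 not called. In iECs all 44 were higher in lung (18.9% of all genes, median 3.75), and in ECs 43 were (24.2% of all genes, median 5.08), with Cd14 not called. Mcemp1, Ear2 and Clec4e had few or no counts in heart fibroblasts and heart iECs. They passed the filter for tested genes through groups where they are high, so their calls here are not independent of it. No member was called lower in lung in these 3 comparisons, by edgeR at an adjusted or unadjusted p under 0.05 or by DESeq2 (0 genes each), against 23.9%, 18.9% and 23.7% of all genes. Tested as a difference of differences, the change from fibroblasts to iECs was larger in lung for 24 of 44 genes (12.6% of all genes) and the change from fibroblasts to ECs for 35 of 44 (16.2% of all genes), and no member had a smaller change in lung by either test (12.6% and 18.3% of all genes), at an unadjusted p under 0.05 or with DESeq2 (0 genes each).

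**Figure D2:**
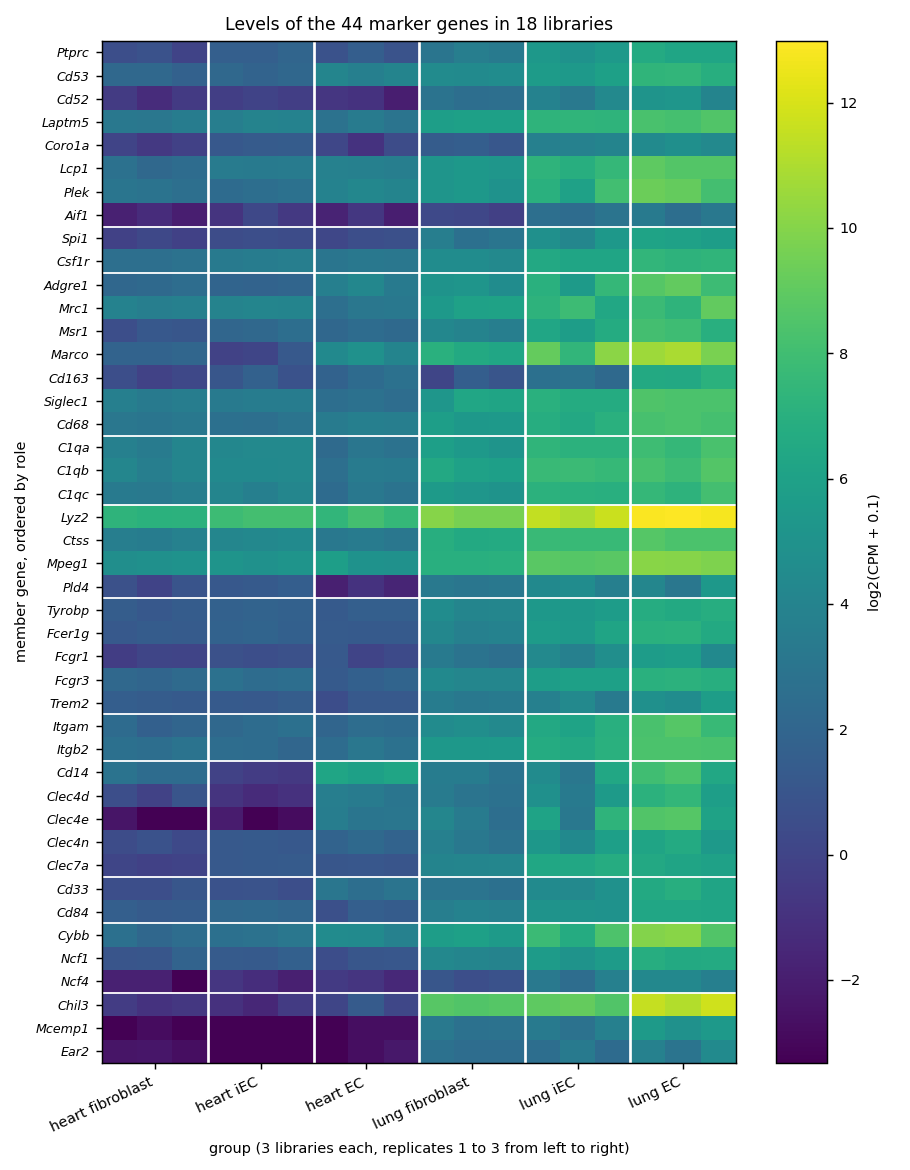
Level of each of the 44 marker genes as log2(CPM + 0.1), by colour, in 18 libraries; genes are ordered by role and white lines separate roles and groups. Lung EC libraries hold the brightest cells for 43 of 44 genes, taken as group means. The share over all genes was not counted.

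Promoters are shown because PU.1 binds a purine-rich core, GAGGAA (reverse complement TTCCTC), in the promoters of many myeloid genes, and 39 of the 44 genes were higher in lung iECs, and 44 in lung ECs, than in lung fibroblasts. RefSeq entries on GRCm38.p6 gave 37 windows of 250 bases before the start of 32 of the 44 genes. Both strands were searched for these 6 letters alone, and 21 of the 37 windows (56.8%, in 19 genes) held at least 1 match, against 7639 of 32851 windows of all genes (23.3%). A match is a description of letters and not a bound site, and no binding was measured here. Below, windows of 4 genes with a match and of Chil3, which had none, run 5′ to 3′ on the gene's strand, with the matched letters in capitals.
Itgam, chr7:128062390-128062639, plus strand: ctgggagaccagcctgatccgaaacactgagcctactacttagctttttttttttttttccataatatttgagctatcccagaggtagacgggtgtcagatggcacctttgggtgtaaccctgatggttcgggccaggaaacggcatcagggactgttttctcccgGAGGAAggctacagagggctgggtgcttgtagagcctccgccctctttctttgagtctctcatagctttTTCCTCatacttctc
Marco, chr1:120505025-120505274, minus strand: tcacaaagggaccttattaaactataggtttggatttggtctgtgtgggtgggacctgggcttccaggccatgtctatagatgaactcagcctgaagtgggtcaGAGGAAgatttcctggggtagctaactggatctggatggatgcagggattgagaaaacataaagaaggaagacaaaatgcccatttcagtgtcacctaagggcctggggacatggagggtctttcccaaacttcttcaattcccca
Laptm5, chr4:130913066-130913315, plus strand: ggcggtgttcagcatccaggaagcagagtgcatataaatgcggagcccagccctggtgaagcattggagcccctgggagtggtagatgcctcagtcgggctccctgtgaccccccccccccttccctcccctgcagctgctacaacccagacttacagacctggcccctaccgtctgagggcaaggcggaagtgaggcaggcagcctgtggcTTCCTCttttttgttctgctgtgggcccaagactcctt
C1qb, chr4:136886201-136886450, minus strand: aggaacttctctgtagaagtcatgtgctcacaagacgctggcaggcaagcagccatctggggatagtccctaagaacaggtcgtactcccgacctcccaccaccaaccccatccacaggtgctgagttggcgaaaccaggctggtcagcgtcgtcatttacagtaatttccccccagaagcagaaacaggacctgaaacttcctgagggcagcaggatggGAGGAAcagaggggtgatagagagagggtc
Chil3, chr3:106167565-106167814, minus strand: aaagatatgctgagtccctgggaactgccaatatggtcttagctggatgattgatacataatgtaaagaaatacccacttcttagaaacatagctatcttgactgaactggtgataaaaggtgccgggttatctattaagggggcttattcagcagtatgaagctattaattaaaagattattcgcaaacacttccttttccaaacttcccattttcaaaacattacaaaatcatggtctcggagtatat
The Itgam window held 1 match on each strand, the Marco and C1qb windows 1 match in the GAGGAA orientation, and the Laptm5 window 1 in the TTCCTC orientation. These examples do not show that matches go with calls. The windows of Lyz2, Mpeg1 and Cybb, all higher in lung iECs, held 0 matches, and that of Trem2, not called there, held 1.

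Spi1 and Csf1r, the lineage factor and the growth factor receptor, were both higher in lung iECs and in lung ECs than in lung fibroblasts. Spi1 (ENSMUSG00000002111, chr2:91082390-91115756, plus strand) read 12.5, 6.25 and 7.83 CPM in lung fibroblasts, 28.9, 17.7 and 40.6 CPM in lung iECs and 71.7, 64.6 and 54.9 CPM in lung ECs. The 3 lung groups did not overlap, and the log2 change was 1.56 ± 0.268 (edgeR adjusted p = 0.00015) in iECs and 2.74 ± 0.272 (edgeR adjusted p = 3.44e-07) in ECs. In heart Spi1 stayed at 0.789 to 1.51 CPM in all 9 libraries, and lung fibroblasts stood above heart fibroblasts by 3.15 ± 0.369 (edgeR adjusted p = 3.27e-06). Csf1r (ENSMUSG00000024621) read 24, 23.9 and 19.95 CPM in lung fibroblasts, 90.7, 77.2 and 77.5 CPM in lung iECs and 172, 147 and 160.0 CPM in lung ECs. Its lung groups were also apart, with changes of 1.69 ± 0.09603 (edgeR adjusted p = 6.47e-11) in iECs and 2.71 ± 0.0983 (edgeR adjusted p = 1.02e-13) in ECs. Heart Csf1r was 6.13, 6.21 and 6.84 CPM in heart fibroblasts, 10.2, 11.6 and 12.4 CPM in heart iECs and 7.94, 9.19 and 8.58 CPM in heart ECs. Heart iECs lay highest in that organ, with a log2 change of 0.65 ± 0.108 (edgeR adjusted p = 6.14e-05) against heart fibroblasts.

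The 8 leukocyte surface and cytoskeleton genes were all higher in lung iECs (25.9% of all genes) and lung ECs (29.3%) than in lung fibroblasts. In heart 5 of 8 were higher in iECs, against 26% of all genes tested. In heart ECs 2 of 8 were higher, near the 24.2% of all genes. Ptprc encodes CD45, the phosphatase found on nearly all blood cells, and Lcp1 encodes the actin-bundling protein L-plastin. Lcp1 (ENSMUSG00000021998, chr14:75131101-75230842, plus strand) read 36.9, 41.3 and 38.3 CPM in lung fibroblasts, 154, 122 and 182 CPM in lung iECs and 481, 400.4 and 400.5 CPM in lung ECs. Its lung groups did not overlap, and it changed by 1.81 ± 0.139 (edgeR adjusted p = 6.23e-09) in lung iECs and 3.34 ± 0.146 (edgeR adjusted p = 2.25e-12) in lung ECs. In heart it read 6.68, 4.47 and 5.44 CPM in heart fibroblasts, 10.9, 10.5 and 11.1 CPM in heart iECs and 14.3, 13.9 and 12.2 CPM in heart ECs, again with no overlap, and the iEC change was 0.78 ± 0.162 (edgeR adjusted p = 0.000597). Ptprc in heart was 1.39, 1.598 and 0.861 CPM in heart fibroblasts, 2.93, 2.91 and 3.88 CPM in heart iECs and 1.61, 2.83 and 1.67 CPM in heart ECs, with an iEC change of 1.13 ± 0.295 (edgeR adjusted p = 0.00409). Plek (ENSMUSG00000020120, chr11:16971206-17052381, minus strand), which encodes pleckstrin, a protein kinase C substrate, read 36.96, 40.6 and 31.8 CPM in lung fibroblasts, 131, 65.6 and 261 CPM in lung iECs and 638, 566 and 274 CPM in lung ECs. The 3 lung groups were apart but lung iEC replicate 3 was 3.98 times replicate 2. Plek changed by 1.91 ± 0.424 (edgeR adjusted p = 0.00206) in lung iECs, and by 1.26 (edgeR adjusted p = 0.00856) without lung iEC replicate 3. In lung ECs its change was 3.65 ± 0.4503 (edgeR adjusted p = 1.23e-05). Heart Plek was 7.98, 7.19 and 6.19 CPM in heart fibroblasts, 5.18, 5.73 and 6.54 CPM in heart iECs and 14.6, 18.3 and 16.1 CPM in heart ECs. Heart ECs lay above both others, yet neither the iEC nor the EC change from fibroblasts passed the test.

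The 7 surface and scavenger receptors include Adgre1 (F4/80), Mrc1 (the mannose receptor), Marco and Msr1 (receptors for modified lipoproteins and particles), Cd163 (a haemoglobin scavenger), Siglec1 (a sialic acid lectin) and Cd68 (an endosomal glycoprotein). All 7 were higher in lung iECs (25.9% of all genes) and lung ECs (29.3%) than in lung fibroblasts. Marco (ENSMUSG00000026390, chr1:120474538-120505024, minus strand) read 131, 94.4 and 78.9 CPM in lung fibroblasts, 569, 173 and 1142 CPM in lung iECs and 1549.8, 1902 and 852 CPM in lung ECs. Lung iEC replicate 3 lay above lung EC replicate 3, so those groups overlapped. Marco changed by 2.48 ± 0.5597 (edgeR adjusted p = 0.00239) in lung iECs and 3.72 ± 0.589 (edgeR adjusted p = 0.000123) in lung ECs, and the lung iEC change was 1.702 (edgeR adjusted p = 0.0117) without lung iEC replicate 3. Between lung iECs and lung ECs it did not pass, at -1.24 ± 0.535 (edgeR adjusted p = 0.0765), but it did without lung iEC replicate 3, at -2.02 (edgeR adjusted p = 0.00764), and without lung EC replicate 3, at -1.53 (edgeR adjusted p = 0.042). With DESeq2 that difference passed too, at -1.25 (DESeq2 adjusted p = 0.0433). In heart Marco was 3.57, 3.53 and 3.98 CPM in heart fibroblasts, 0.811, 0.9699 and 2.23 CPM in heart iECs and 20.8, 30.2 and 16.5 CPM in heart ECs. Heart ECs were highest and heart iECs lowest without overlap, with a change of 2.49 ± 0.651 (edgeR adjusted p = 0.00705) in ECs, whereas the iEC value of -1.64 ± 0.823 (edgeR adjusted p = 0.116) did not pass. That iEC value did pass with DESeq2, at -1.65 (DESeq2 adjusted p = 0.00768), and in a fit to the compared groups alone, at -1.65 (edgeR adjusted p = 4.63e-05).

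Adgre1 (ENSMUSG00000004730, chr17:57358691-57483527, plus strand) read 33.2, 35.5 and 24.02 CPM in lung fibroblasts, 129, 47.1 and 188 CPM in lung iECs and 409, 531 and 234 CPM in lung ECs. The lung groups did not overlap, with changes of 1.82 ± 0.434 (edgeR adjusted p = 0.00343) in iECs and 3.56 ± 0.459 (edgeR adjusted p = 1.89e-05) in ECs. Its heart values were 4.22, 4.65 and 5.598 CPM in heart fibroblasts, 3.79, 3.63 and 3.93 CPM in heart iECs and 13.3, 18.8 and 10.6 CPM in heart ECs, and heart ECs lay above the other 2 groups. That heart EC change was 1.45 ± 0.507 (edgeR adjusted p = 0.032), and it no longer passed when any 1 of 5 libraries (each heart fibroblast replicate, heart EC replicate 1 or replicate 2) was left out, with edgeR adjusted p from 0.0552 to 0.0992. Siglec1 (ENSMUSG00000027322, chr2:131069220-131086765, minus strand) read 37.8, 79.6 and 71.9 CPM in lung fibroblasts, 129, 106 and 105 CPM in lung iECs and 356, 328 and 323 CPM in lung ECs. Lung fibroblast replicate 1 lay below the other 2, and the lung groups stayed apart, with changes of 0.68 ± 0.192 (edgeR adjusted p = 0.00796) in iECs and 2.29 ± 0.198 (edgeR adjusted p = 8.36e-08) in ECs. In heart Siglec1 ran against most of its list, at 12.9, 9.92 and 12.1 CPM in heart fibroblasts, 10.4, 11.2 and 11.2 CPM in heart iECs and 5.77, 6.73 and 5.61 CPM in heart ECs. Heart ECs were lowest without overlap, at -1.06 ± 0.229 (edgeR adjusted p = 0.00139) against fibroblasts, and heart iECs exceeded heart ECs by 0.78 ± 0.229 (edgeR adjusted p = 0.0099). Cd163 rose most of the 44 genes in lung ECs, by 5.65 ± 0.326 (edgeR adjusted p = 7.1e-10), from 0.958, 2.87 and 1.902 CPM in lung fibroblasts to 94.6, 91.8 and 134 CPM. Lung iECs held 6.44, 7.11 and 4.605 CPM, a difference of -4.18 ± 0.2896 (edgeR adjusted p = 1.31e-08) from lung ECs. Cd68 was lower in heart iECs, with a change from heart fibroblasts of -0.55 ± 0.152 (edgeR adjusted p = 0.00608).

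The 3 complement C1q chains (C1qa, C1qb and C1qc), which form the recognition part of the classical complement pathway, moved in opposite directions in the ECs of the 2 organs. All 3 were higher in lung ECs (29.3% of all genes) and lower in heart ECs (23.3%) than in the fibroblasts of the same organ. C1qa (ENSMUSG00000036887, chr4:136895917-136898803, minus strand) read 59.4, 46.04 and 34.8 CPM in lung fibroblasts, 163, 144 and 142 CPM in lung iECs and 239.6, 187 and 322 CPM in lung ECs. The lung groups did not overlap, with changes of 1.51 ± 0.209 (edgeR adjusted p = 2.13e-05) in iECs and 2.29 ± 0.213 (edgeR adjusted p = 2.3e-07) in ECs. In heart the values were 13.8, 10.9 and 16.8 CPM in heart fibroblasts, 18.5, 19.9 and 20.2 CPM in heart iECs and 4.796, 8.17 and 7.07 CPM in heart ECs. Heart ECs were lowest without overlap, at -1.17 ± 0.241 (edgeR adjusted p = 0.000992), and the difference between the organs' EC changes was 3.47 ± 0.3201 (edgeR adjusted p = 6.76e-07). C1qb (ENSMUSG00000036905, chr4:136880129-136886187, minus strand) read 92.9, 64.4 and 57.6 CPM in lung fibroblasts, 211, 222 and 194 CPM in lung iECs and 299, 231 and 399 CPM in lung ECs. Its groups were apart in the same order, at 1.38 ± 0.2100 (edgeR adjusted p = 5.66e-05) in lung iECs and 1.99 ± 0.213 (edgeR adjusted p = 1.18e-06) in lung ECs. Heart C1qb was 17.7, 12.7 and 17.1 CPM in heart fibroblasts, 21.1, 21.1 and 20.2 CPM in heart iECs and 6.15, 11.2 and 10.6 CPM in heart ECs. Again heart ECs were lowest, at -0.89 ± 0.236 (edgeR adjusted p = 0.00595), and the organ difference was 2.88 ± 0.316 (edgeR adjusted p = 4.27e-06). In heart iECs none of the 3 chains passed the test against fibroblasts.

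Among lysosomal and secreted effectors, 3 of 4 were higher in lung iECs (25.9% of all genes) and 4 of 4 in lung ECs (29.3%). Lyz2 encodes lysozyme, an enzyme that cuts bacterial cell walls, Ctss encodes a cathepsin, and Mpeg1 a pore-forming protein of phagosomes. Lyz2 (ENSMUSG00000069516, chr10:117277331-117282321, minus strand) read 1056, 812 and 795 CPM in lung fibroblasts, 2873, 2024 and 3257 CPM in lung iECs and 7753, 8114 and 6801 CPM in lung ECs. No lung group overlapped another, and the changes were 1.45 ± 0.185 (edgeR adjusted p = 6.24e-06) in iECs and 2.98 ± 0.195 (edgeR adjusted p = 1.71e-09) in ECs. Heart Lyz2 was 154, 137 and 143 CPM in heart fibroblasts, 235, 274 and 278 CPM in heart iECs and 173, 271 and 184 CPM in heart ECs. Heart fibroblasts were lowest, and the iEC change was 0.67 ± 0.183 (edgeR adjusted p = 0.00594). Between organs Lyz2 was higher in lung by 2.47 ± 0.192 (edgeR adjusted p = 2.33e-08) in fibroblasts, by 3.26 ± 0.198 (edgeR adjusted p = 2.08e-09) in iECs and by 5.04 ± 0.215 (edgeR adjusted p = 1.22e-11) in ECs. Per length, in TPM (levels scaled to exon length and library), Lyz2 was the first of the 44 genes in all 6 groups, from 375 in heart fibroblasts to 19192 in lung ECs. The second was C1qb in heart fibroblasts (49.5 TPM) and heart iECs (68.7 TPM), Cd14 in heart ECs (143 TPM), and Chil3 in lung fibroblasts (819 TPM) and lung ECs (6078 TPM). Mpeg1 (ENSMUSG00000046805, chr19:12460779-12465283, plus strand) read 124, 127 and 128 CPM in lung fibroblasts, 446, 411 and 457 CPM in lung iECs and 1077, 1031 and 902 CPM in lung ECs. It rose by 1.63 ± 0.173 (edgeR adjusted p = 7.34e-07) in lung iECs and by 2.88 ± 0.181 (edgeR adjusted p = 8.46e-10) in lung ECs, with groups apart. Heart Mpeg1 was 26.2, 28.4 and 31.6 CPM in heart fibroblasts, 33.9, 29.9 and 35.2 CPM in heart iECs and 55.2, 31.7 and 30.9 CPM in heart ECs, with all 3 groups overlapping, and lung fibroblasts exceeded heart fibroblasts by 1.995 ± 0.179 (edgeR adjusted p = 1.11e-07). Pld4 did not pass in lung iECs, at 0.95 ± 0.397 (edgeR adjusted p = 0.0588), although it did without lung iEC replicate 3, at 1.16 (edgeR adjusted p = 0.0369). It also passed with DESeq2, at 0.97 (DESeq2 adjusted p = 0.0322), and in a fit to the compared groups alone, at 0.95 (edgeR adjusted p = 0.00764). In heart ECs Pld4 was lower, at -2.48 ± 0.765 (edgeR adjusted p = 0.0151), a call lost without heart EC replicate 1, at -2.22 (edgeR adjusted p = 0.0642).

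Fc receptors bind antibody and signal through the adaptor Fcer1g, the Fc receptor gamma chain, while Tyrobp (DAP12) is the ITAM adaptor of Trem2 and related receptors. Of the 5 genes of this group, 4 were higher in lung iECs (25.9% of all genes) and 5 in lung ECs (29.3%). In heart only Fcgr3 was called against fibroblasts, lower in ECs (23.3% of all genes). Fcgr3 (ENSMUSG00000059498, chr1:171051174-171064935, minus strand) read 21.5, 17.6 and 17.96 CPM in lung fibroblasts, 52.9, 61.9 and 62.7 CPM in lung iECs and 131, 143 and 121 CPM in lung ECs. The groups were apart, with changes of 1.48 ± 0.124 (edgeR adjusted p = 1.5e-08) in iECs and 2.68 ± 0.127 (edgeR adjusted p = 3.78e-12) in ECs. Heart Fcgr3 was 4.46, 3.95 and 4.898 CPM in heart fibroblasts, 6.54, 5.398 and 5.72 CPM in heart iECs and 2.33, 3.099 and 3.78 CPM in heart ECs, and heart ECs were lowest without overlap, at -0.66 ± 0.167 (edgeR adjusted p = 0.00359). Fcer1g (ENSMUSG00000058715, chr1:171229572-171234365, minus strand) read 18.6, 13.8 and 15.1 CPM in lung fibroblasts, 49.7, 44.7 and 72.2 CPM in lung iECs and 129.6, 138 and 96.3 CPM in lung ECs. It rose by 1.65 ± 0.178 (edgeR adjusted p = 6.75e-07) in lung iECs and by 2.83 ± 0.182 (edgeR adjusted p = 7.36e-10) in lung ECs. In heart it ran from 2.27 to 3.795 CPM over the 9 libraries, and no change from heart fibroblasts passed the test. Trem2, a lipid receptor of macrophages, was not called in lung iECs, at 0.38 ± 0.245 (edgeR adjusted p = 0.21).

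Itgam (CD11b) and Itgb2 (CD18) pair to form the integrin through which phagocytes adhere and take up complement-coated particles. Itgam (ENSMUSG00000030786, chr7:128062640-128118491, plus strand) read 22.9, 26.4 and 20.4 CPM in lung fibroblasts, 91.1, 68.9 and 124 CPM in lung iECs and 322, 407 and 205 CPM in lung ECs. The 3 lung groups did not overlap, and the changes were 1.87 ± 0.276 (edgeR adjusted p = 5.85e-05) in iECs and 3.64 ± 0.291 (edgeR adjusted p = 8.36e-08) in ECs. In heart Itgam was 5.01, 3.103 and 3.82 CPM in heart fibroblasts, 4.42, 5.398 and 6.501 CPM in heart iECs and 3.82, 5.66 and 5.13 CPM in heart ECs, with overlap between all groups. Itgb2 (ENSMUSG00000000290, chr10:77530252-77565708, plus strand) read 41.6, 41.2 and 42.5 CPM in lung fibroblasts, 105, 90.8 and 132 CPM in lung iECs and 323, 330.4 and 312 CPM in lung ECs. It was higher by 1.23 ± 0.142 (edgeR adjusted p = 1.22e-06) in lung iECs and 2.83 ± 0.148 (edgeR adjusted p = 2.76e-11) in lung ECs, with groups apart. Heart Itgb2 was 6.31, 5.97 and 7.43 CPM in heart fibroblasts, 5.68, 5.23 and 4.14 CPM in heart iECs and 5.39, 8.66 and 6.69 CPM in heart ECs. Heart iECs lay below heart fibroblasts without overlap, at -0.57 ± 0.175 (edgeR adjusted p = 0.0113), a call lost without heart fibroblast replicate 3, at -0.48 (edgeR adjusted p = 0.0546), or without heart iEC replicate 3, at -0.45 (edgeR adjusted p = 0.0597).

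Pattern recognition receptors sense microbes, and 1 of them, Clec4e, gave the largest fold between libraries of 1 group. Cd14 is the co-receptor for bacterial lipopolysaccharide, and Clec4d, Clec4e, Clec4n and Clec7a are lectins that bind microbial sugars and lipids. In heart ECs all 5 were higher than in heart fibroblasts (24.2% of all genes), as they were in lung ECs against lung fibroblasts (29.3%). Cd14 (ENSMUSG00000051439) read 7.19, 5.31 and 5.27 CPM in heart fibroblasts, 0.811, 0.633 and 0.567 CPM in heart iECs and 77.3, 62.7 and 77.3 CPM in heart ECs. The heart groups did not overlap, with heart ECs highest by 3.49 ± 0.736 (edgeR adjusted p = 0.00177). Heart iECs were lowest, at -3.32 ± 1.07 (edgeR adjusted p = 0.0205), a call that just missed the threshold (edgeR adjusted p from 0.0502 to 0.0571) without heart fibroblast replicate 1, heart iEC replicate 2 or heart iEC replicate 3. In lung Cd14 was 11.2, 11.7 and 7.21 CPM in lung fibroblasts, 23.03, 8.83 and 86.4 CPM in lung iECs and 249.9, 329 and 89.4 CPM in lung ECs. Lung iEC replicate 2 fell inside the lung fibroblast range while replicate 3 was far above it. The lung iEC change of 1.82 ± 0.691 (edgeR adjusted p = 0.0429) did not pass without lung iEC replicate 3, at 0.49 (edgeR adjusted p = 0.489), or without any 1 lung fibroblast replicate, with edgeR adjusted p from 0.0786 to 0.126. In lung ECs the change was 4.38 ± 0.732 (edgeR adjusted p = 0.000197). Lung ECs did not pass against heart ECs, at 1.496 ± 0.631 (edgeR adjusted p = 0.069), but did without lung EC replicate 3, at 1.89 (edgeR adjusted p = 0.024). The difference between the organs' iEC changes was 5.15 ± 1.27 (edgeR adjusted p = 0.00978), and 3.82 (edgeR adjusted p = 0.0119) without lung iEC replicate 3.

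Clec4e (ENSMUSG00000030142, chr6:123281789-123289870, minus strand) read 17.7, 10.9 and 5.84 CPM in lung fibroblasts, 69.7, 9.11 and 159 CPM in lung iECs and 371, 405 and 67.1 CPM in lung ECs. Lung iECs spanned a 17.5-fold range that overlapped both other lung groups. The lung iEC change was 2.65 ± 0.8695 (edgeR adjusted p = 0.0224) and was lost without lung iEC replicate 3, at 1.62 (edgeR adjusted p = 0.139), and without lung fibroblast replicate 2 or replicate 3, with edgeR adjusted p of 0.0634 and 0.0811. Lung ECs were higher by 4.53 ± 0.921 (edgeR adjusted p = 0.000932). Against lung ECs, lung iECs gave -1.89 ± 0.801 (edgeR adjusted p = 0.073), which passed without lung iEC replicate 3, at -2.92 (edgeR adjusted p = 0.0185), or without lung EC replicate 3, at -2.36 (edgeR adjusted p = 0.0209). In heart Clec4e was 0.0928, 0 and 0 CPM in heart fibroblasts, 0.135, 0 and 0.0436 CPM in heart iECs and 12.1, 7.91 and 8.47 CPM in heart ECs. Heart fibroblasts held 2 counts in all and heart ECs 589, a ratio of 297 (exact 95% counting interval 81.9 to 2461, which covers counting error only). With so few counts in heart fibroblasts, the difference between the organs' EC changes did not pass, at -3.33 ± 3.82 (edgeR adjusted p = 0.548). Clec7a alone among the 44 was highest in lung iECs, at 83.00, 89.6 and 109.7 CPM against 89.9, 72.3 and 63.3 CPM in lung ECs and 16.5, 17.3 and 17.7 CPM in lung fibroblasts. It rose by 2.29 ± 0.127 (edgeR adjusted p = 4.73e-11) over lung fibroblasts. Against lung ECs the groups overlapped and the difference of 0.28 ± 0.118 (edgeR adjusted p = 0.0657) did not pass, but it did without lung iEC replicate 1, at 0.36 (edgeR adjusted p = 0.0324), or without lung EC replicate 1, at 0.43 (edgeR adjusted p = 0.00623).

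Cd33 is an inhibitory sialic acid lectin and Cd84 a self-binding receptor of the SLAM family. Cd33 (ENSMUSG00000004609, chr7:43524216-43544428, minus strand) read 7.49, 7.799 and 6.41 CPM in lung fibroblasts, 21.8, 20.3 and 29.8 CPM in lung iECs and 97.8, 117 and 73.7 CPM in lung ECs. It was higher by 1.57 ± 0.196 (edgeR adjusted p = 3.55e-06) in lung iECs and 3.63 ± 0.202 (edgeR adjusted p = 8.06e-11) in lung ECs, without overlap. In heart Cd33 was 1.44, 1.41 and 1.94 CPM in heart fibroblasts, 1.62, 1.73 and 1.396 CPM in heart iECs and 8.19, 5.82 and 7.61 CPM in heart ECs, and heart ECs lay above the others, by 2.07 ± 0.251 (edgeR adjusted p = 3.42e-06) against fibroblasts. Cd84 (ENSMUSG00000038147, chr1:171839697-171890718, plus strand) read 12.6, 14.9 and 13.7 CPM in lung fibroblasts, 33.4, 33.2 and 31.9 CPM in lung iECs and 78.7, 81.4 and 76.9 CPM in lung ECs. These groups were apart as well, with changes of 1.09 ± 0.126 (edgeR adjusted p = 8.85e-07) in iECs and 2.41 ± 0.128 (edgeR adjusted p = 1.72e-11) in ECs. Heart Cd84 was 2.97, 2.44 and 2.58 CPM in heart fibroblasts, 4.51, 4.68 and 4.01 CPM in heart iECs and 1.49, 2.94 and 2.54 CPM in heart ECs. There iECs were highest, above both other groups without overlap.

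The phagocyte oxidase makes superoxide; Cybb encodes its membrane-bound catalytic subunit, and Ncf1 and Ncf4 its cytosolic subunits. All 3 were higher in lung iECs (25.9% of all genes) and lung ECs (29.3%) than in lung fibroblasts. Cybb (ENSMUSG00000015340, chrX:9435252-9487771, minus strand) read 53.6, 62.3 and 47.6 CPM in lung fibroblasts, 226, 105 and 349 CPM in lung iECs and 994, 1101 and 383 CPM in lung ECs. The groups did not overlap, and Cybb changed by 1.901 ± 0.444 (edgeR adjusted p = 0.00294) in iECs and 3.82 ± 0.477 (edgeR adjusted p = 1.4e-05) in ECs. In heart it was 6.45, 4.28 and 5.65 CPM in heart fibroblasts, 6.49, 7.000 and 8.77 CPM in heart iECs and 23.4, 22.6 and 14.1 CPM in heart ECs, with ECs highest by 1.77 ± 0.504 (edgeR adjusted p = 0.0115). Ncf1 (ENSMUSG00000015950, chr5:134220053-134229625, minus strand) read 19.04, 16.9 and 15.4 CPM in lung fibroblasts, 49.1, 33.2 and 48.3 CPM in lung iECs and 113, 96.5 and 101 CPM in lung ECs. It rose by 1.19 ± 0.171 (edgeR adjusted p = 1.59e-05) in lung iECs and 2.48 ± 0.174 (edgeR adjusted p = 1.5e-09) in lung ECs. Heart Ncf1 was 1.86, 1.97 and 3.499 CPM in heart fibroblasts, 2.52, 2.404 and 3.05 CPM in heart iECs and 1.36, 1.92 and 2.05 CPM in heart ECs, with heart ECs overlapping heart fibroblasts and neither heart change called.

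Of the 44 genes, 3 are listed here as alveolar macrophage genes, and Marco, a further one, is described with the scavenger receptors and was higher in lung iECs. Chil3, Mcemp1 and Ear2 did not pass the test in lung iECs. All 3 were higher in lung ECs than in lung fibroblasts (29.3% of all genes). They were also higher in lung fibroblasts than in heart fibroblasts (24.6% of all genes). Mcemp1 and Ear2 passed the filter for tested genes only through the lung groups. Chil3 encodes a secreted chitinase-like protein, Mcemp1 a membrane protein of myeloid cells and Ear2 an eosinophil-associated ribonuclease. Chil3 (ENSMUSG00000040809, chr3:106147554-106167564, minus strand) read 439, 369.6 and 411 CPM in lung fibroblasts, 498, 554 and 372 CPM in lung iECs and 3069, 2220.0 and 3591 CPM in lung ECs. Lung iECs overlapped lung fibroblasts, at 0.058 ± 0.202 (edgeR adjusted p = 0.838), and lung ECs were apart, by 2.74 ± 0.215 (edgeR adjusted p = 2.5e-08) against fibroblasts. Lung iECs were lower than lung ECs, at -2.68 ± 0.214 (edgeR adjusted p = 6.53e-08). In heart Chil3 was 0.6498, 0.423 and 0.538 CPM in heart fibroblasts, 0.406, 0.253 and 0.611 CPM in heart iECs and 0.976, 2.51 and 1.03 CPM in heart ECs, and lung fibroblasts exceeded heart fibroblasts by 9.41 ± 0.333 (edgeR adjusted p = 4.79e-12). As a percentage of Lyz2 in the same library, Chil3 was 41.6, 45.5 and 51.7 in lung fibroblasts, 17.3, 27.4 and 11.4 in lung iECs, and 39.6, 27.4 and 52.8 in lung ECs. In that order of groups, mean percentages were 0.869, 0.375 and 0.535 for Mcemp1 and 0.671, 0.293 and 0.202 for Ear2. Marco went the other way in lung iECs, with means of 11.3, 21.1 and 18.7. Its lung iEC values spread from 8.53 to 35.1. Mcemp1 (ENSMUSG00000013974, chr8:3665754-3669259, plus strand) read 9.64, 6.62 and 6.99 CPM in lung fibroblasts, 10.4, 6.92 and 13.7 CPM in lung iECs and 46.7, 30.7 and 42.5 CPM in lung ECs. Again lung iECs overlapped lung fibroblasts, at 0.26 ± 0.2404 (edgeR adjusted p = 0.398), and lung ECs did not, at 2.25 ± 0.239 (edgeR adjusted p = 7.5e-07). Heart libraries held 1 count of Mcemp1 in fibroblasts, 0 in iECs and 2 in ECs, and lung iECs held 605, so Mcemp1 was at least 235-fold higher in lung iECs than in heart iECs (3 counts over the 3 libraries stand in for 0). Ear2 gave 0.11 ± 0.334 (edgeR adjusted p = 0.813) in lung iECs and 1.18 ± 0.3297 (edgeR adjusted p = 0.00623) in lung ECs. Its lung iEC level was at least 166-fold above that of heart iECs, which held 0 counts, by the same rule. Lyz2, Chil3 and Ear2 have close copies in the mouse genome, and how reads were shared between copies is not given in the sources used here.

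**Figure D3:**
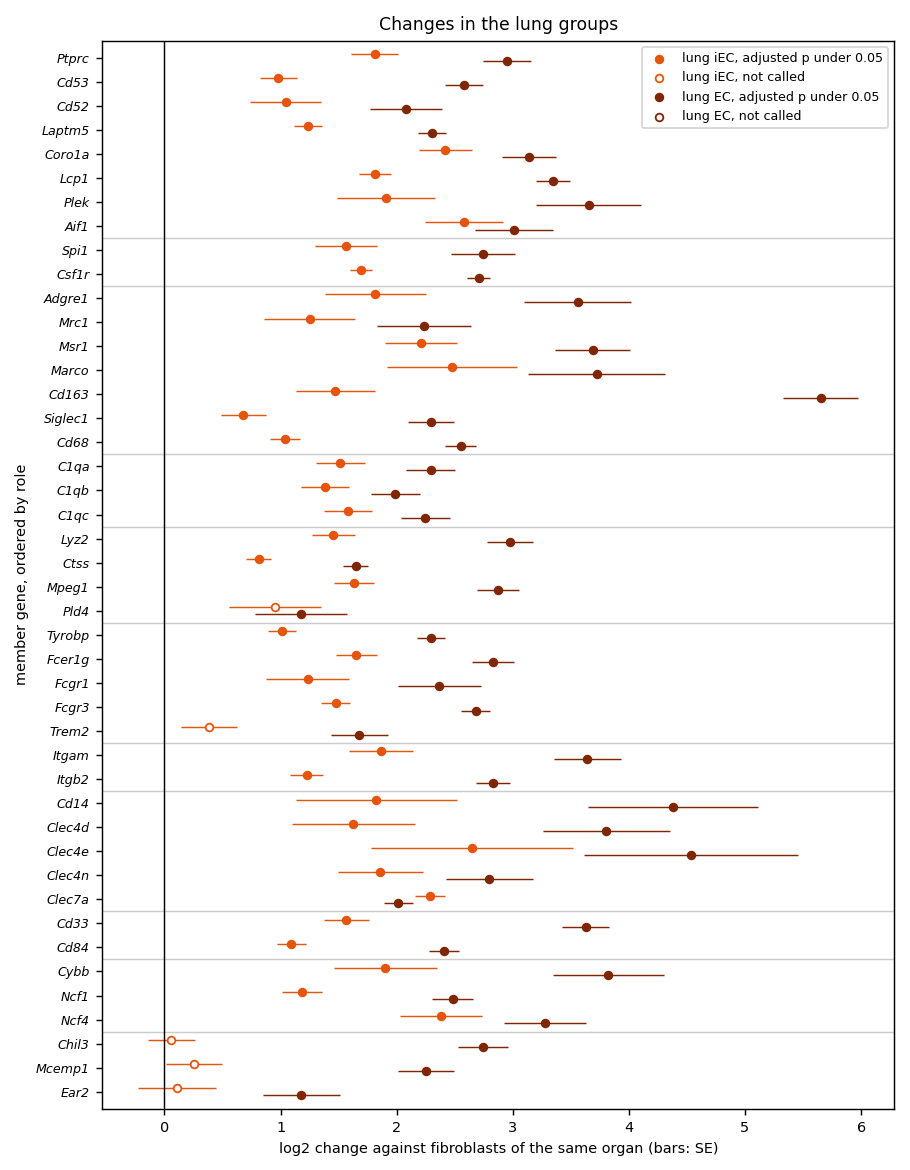
Log2 change of each of the 44 genes in lung iECs and lung ECs against lung fibroblasts, with bars for the SE (3 libraries a group); filled points have an edgeR adjusted p under 0.05. All 44 lung EC points are filled and above 0, and open points mark the 5 genes not called in lung iECs.

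**Figure D4:**
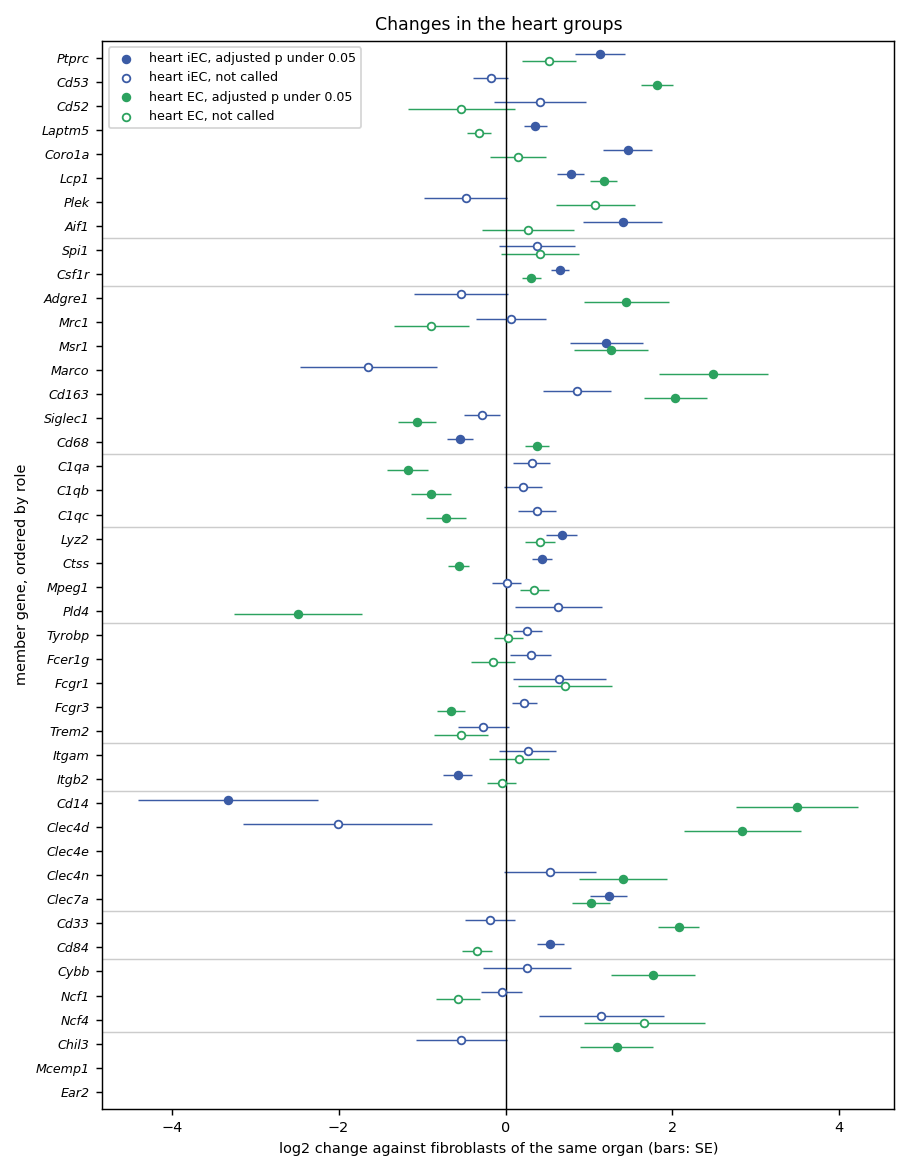
Log2 change of each of the 44 genes in heart iECs and heart ECs against heart fibroblasts, with bars for the SE (3 libraries a group); filled points have an edgeR adjusted p under 0.05. Clec4e, Mcemp1 and Ear2 are left blank, since a compared group held 3 counts or fewer, and points lie on both sides of 0.

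Within lung groups, markers differed between replicates in opposite ways. In lung iECs 29 of 44 genes were highest in replicate 3 and 28 were lowest in replicate 2. In lung ECs 28 of 44 were lowest in replicate 3. Counting both, 28 genes were higher in lung iEC replicate 3 than in replicate 2 and lower in lung EC replicate 3 than in the mean of replicates 1 and 2, and 10 genes showed the opposite. Over the 44 genes, the log2 ratios of those library pairs had r = -0.902 and rho = -0.887, and over 12936 genes with a count in every lung library and a mean of at least 1 CPM, r = -0.621 and rho = -0.445. Genes within libraries are not independent, and these libraries were picked after their values were seen, so this is a description. The shares of all genes that were highest, lowest or opposite in these libraries were not counted. Of the 44, 11 genes were over 2-fold higher in lung iEC replicate 3 than in replicate 2, among them Clec4e, Cd14, Marco, Cybb and Plek, and all 11 were lower in lung EC replicate 3. Over all those genes the share past 2-fold was 3.52%, of which 89.9% were lower in lung EC replicate 3. Csf3, a growth factor of neutrophils chosen here after its values were seen, followed the same pattern, at 2.51, 0.239 and 27.8 CPM in lung iECs and 141, 195 and 14.3 CPM in lung ECs, as did Il1rn, which encodes an antagonist of interleukin 1 receptors, at 15.9, 5.01 and 65.1 CPM and 84.9, 125 and 11.6 CPM. The part of this difference in the results was not tested.

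**Figure D5:**
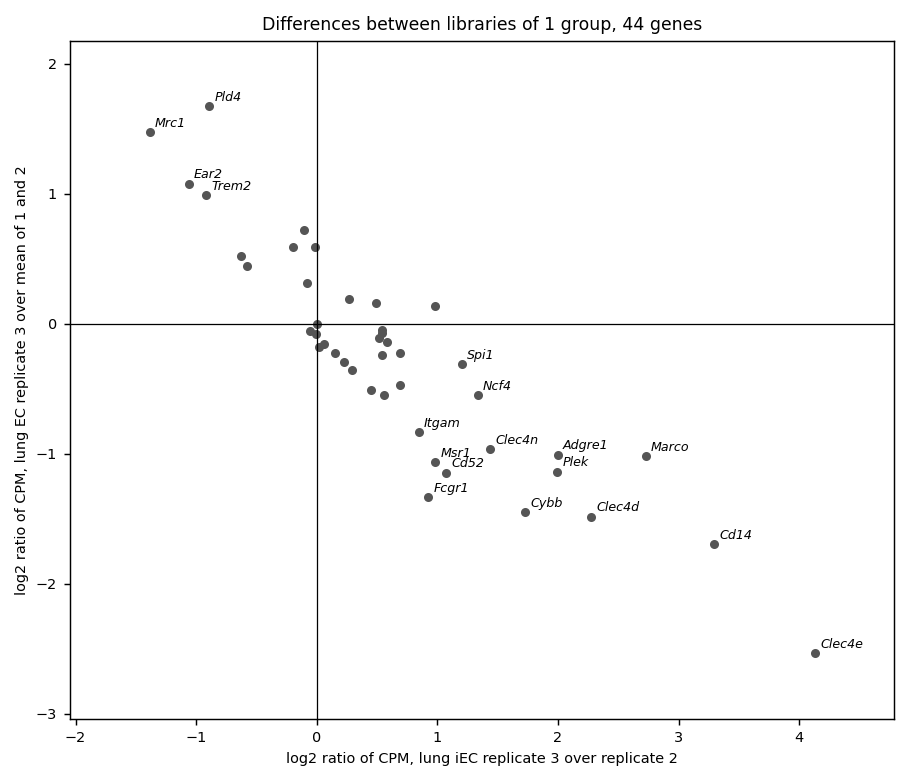
For each of the 44 genes, the log2 ratio of lung iEC replicate 3 over replicate 2 (horizontal) against the log2 ratio of lung EC replicate 3 over the mean of replicates 1 and 2 (vertical). Most points (28) lie in the lower right, higher in the iEC library and lower in the EC library.

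Other genes linked to macrophages and leukocytes were read from lists outside the 44. Which cells carried them was not tested, and Csf1 alone read above the sum of the 44 genes in every heart library. Of 11 leukocyte signalling enzymes and adaptors, 10 were higher in lung iECs and 11 in lung ECs than in lung fibroblasts, and in heart 3 were higher and 1 lower in iECs, with 6 higher in ECs. Of all genes tested, 26% were higher and 24.6% lower in heart iECs, so the 3 of 11 lay near that share, and 24.2% were higher in heart ECs. In lung, 25.9% of all genes were higher in iECs and 29.3% in ECs. Syk, a kinase that acts downstream of Fc receptors, was the lower one in heart iECs, at -1.76 ± 0.293 (edgeR adjusted p = 0.000162), from 28.04, 31.3 and 26.5 CPM in heart fibroblasts to 8.92, 10.5 and 9.29 CPM. It rose in lung iECs by 1.45 ± 0.279 (edgeR adjusted p = 0.00057). The 7 colony-stimulating factors and receptors had 3 higher in lung iECs (25.9% of all genes) and 7 in lung ECs (29.3%). In heart 2 were lower in iECs, near the 24.6% of all genes, and 5 higher in ECs (24.2%). Csf1, the ligand of Csf1r, read 1103, 1170.0 and 1118 CPM in heart fibroblasts, 593, 551 and 567 CPM in heart iECs and 3671, 3572 and 3525 CPM in heart ECs. It fell in heart iECs, at -1.17 ± 0.177 (edgeR adjusted p = 3.51e-05), and rose in heart ECs by 1.55 ± 0.179 (edgeR adjusted p = 2.74e-06). In lung Csf1 read 1139, 972 and 1019 CPM in lung fibroblasts, 958, 759.5 and 1569 CPM in lung iECs and 2268, 2072 and 2149 CPM in lung ECs, and lung iEC replicate 3 was above the other 2. The lung iEC change was -0.088 ± 0.175 (edgeR adjusted p = 0.704), or -0.45 (edgeR adjusted p = 0.000912) without lung iEC replicate 3, and the lung EC change was 0.94 ± 0.176 (edgeR adjusted p = 0.000243). Csf2rb, the shared receptor chain for interleukin 3 and 5 and for granulocyte-macrophage colony-stimulating factor, rose by 1.99 ± 0.284 (edgeR adjusted p = 3.71e-05) in lung iECs, 3.78 ± 0.294 (edgeR adjusted p = 4.72e-08) in lung ECs and 3.68 ± 0.393 (edgeR adjusted p = 2.97e-06) in heart ECs; it has a close copy, Csf2rb2.

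Of 13 macrophage transcription factors, 7 were higher and 2 lower in lung iECs and 10 were higher in lung ECs, whereas in heart 1 was higher and 5 lower in iECs and 6 higher and 4 lower in ECs. The shares of all genes tested were 25.9% higher and 24.7% lower in lung iECs, 29.3% higher in lung ECs, 26% higher and 24.6% lower in heart iECs, and 24.2% higher and 23.3% lower in heart ECs. Maf, a leucine zipper factor, fell in both iEC groups, at -0.89 ± 0.199 (edgeR adjusted p = 0.00147) in lung and -2.85 ± 0.229 (edgeR adjusted p = 4.16e-08) in heart. Further alveolar genes gave 2 higher of 6 tested in lung iECs, near the all-gene share of 25.9%, and 5 of 6 in lung ECs, against 29.3%. The 2 in lung iECs were Atp6v0d2, a proton pump subunit, at 0.99 ± 0.165 (edgeR adjusted p = 7.57e-05), and Plet1, a membrane protein, at 0.96 ± 0.169 (edgeR adjusted p = 0.000109). Further interstitial and resident genes gave 3 higher and 3 lower of 7 tested in lung iECs, against 25.9% and 24.7% of all genes. In lung ECs 6 were higher and 1 lower, against 29.3% and 28.7%. F13a1, which encodes a chain of coagulation factor XIII, read 15.3, 19.2 and 16.4 CPM in lung fibroblasts, 12.4, 8.25 and 1.62 CPM in lung iECs and 260.3, 183 and 451 CPM in lung ECs. It was higher in lung ECs by 4.0 ± 0.488 (edgeR adjusted p = 1.12e-05). The lung iEC value of -1.36 ± 0.497 (edgeR adjusted p = 0.0366) lost its call without any 1 of the 3 lung fibroblast replicates, lung iEC replicate 2 or lung iEC replicate 3, with edgeR adjusted p from 0.0519 to 0.0893. Cx3cr1, the fractalkine receptor, read 0.507, 0.04698 and 0.0885 CPM in lung fibroblasts, 9.63, 18.7 and 1.26 CPM in lung iECs and 3.02, 1.51 and 20.98 CPM in lung ECs. Its lung iEC change was 5.43 ± 1.28 (edgeR adjusted p = 0.00297), with 6.89 (edgeR adjusted p = 0.00742) without lung fibroblast replicate 1 and 4.58 (edgeR adjusted p = 0.0106) without lung iEC replicate 2, and the groups overlapped only between lung iECs and lung ECs. The heart iEC change of Cx3cr1 was 6.003 ± 1.56 (edgeR adjusted p = 0.00574), from 0.0928, 0 and 0.108 CPM to 5.45, 5.82 and 4.14 CPM.

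Markers of other blood cells were at low summed levels, and some were called higher and some lower in lung ECs or lung iECs than in lung fibroblasts. The 1 B cell gene tested was lower in lung iECs, with a log2 change of -1.91. The 1 erythroid and platelet gene tested was lower in lung ECs, at -1.49. Of 3 dendritic cell genes tested, 1 was higher and 1 lower in lung iECs. The summed level of 11 neutrophil genes was 2.44 ± 1.34 CPM in lung fibroblasts, 8.21 ± 4.18 in lung iECs and 30.9 ± 13.6 in lung ECs (SD, n = 3). Of 5 neutrophil genes tested, Csf3r and Ltf were called higher in lung iECs (25.9% of all genes), and S100a8, Csf3r and Ltf in lung ECs (29.3% of all genes). Ltf had few counts, at 0 CPM in every lung fibroblast library, 0.785, 0.620 and 0.942 in lung iECs and 0.0512, 0.336 and 0.0463 in lung ECs. S100a8, a calcium-binding protein of neutrophils, read 2.20, 1.32 and 0.310 CPM in lung fibroblasts, 2.20, 1.48 and 2.83 in lung iECs, and 22.0, 29.8 and 9.54 in lung ECs. Ly6g, Retnlg and S100a9 had no count in any group. The 10 T and NK cell genes summed to 8.07 ± 1.001 CPM in lung ECs, where Cd4 was called higher, and 0.872 to 3.47 CPM in the means of the other groups, with no count of Nkg7, Ncr1 or Gzma. B cell genes (7) had means of 0.874 to 8.14 CPM, mast cell and basophil genes (6) 0.232 to 7.98 CPM, dendritic cell genes (7) 6.54 to 14.0 CPM and erythroid and platelet genes (5) 0.749 to 3.74 CPM. Mcpt4 and Mcpt8 of mast cells and basophils and Clec9a of dendritic cells were also called higher in lung ECs. The Mcpt4 call rested on few counts, at 0.154, 0.0841 and 0.0926 CPM in lung ECs and 0 in every lung fibroblast library. The part of these cells in the results was not tested. Haemoglobin genes Hba-a1 and Hbb-bs, and the dendritic cell gene Cd209a, had no count in any library.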

How the data were processed

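RNA was measured by mRNA sequencing in 18 libraries (6 groups of 3). The table deposited by the authors holds estimated counts per gene in whole numbers (0 values were not whole), with no scaling of library totals. Per the submitters' processing notes, Salmon and DESeq2 were used, with mm10 as genome build; their roles and versions, and how transcripts were summed to genes, are not given in the sources used here. Gene symbols, positions and exon lengths came from GENCODE release M21 (GRCm38); 35422 of 35727 IDs had a symbol, and those without held 0.0532% of counts. Tests used edgeR 4.0.16 (R 4.3.3). Its filterByExpr kept 14864 genes, which held 99.97% of counts. With TMM scaling, 1 robust quasi-likelihood fit took in all 18 libraries, with 12 residual degrees of freedom (common BCV, the relative spread between replicates, 0.135). A call means an adjusted p (Benjamini-Hochberg, over the genes tested) under 0.05 in the given comparison, of which there were 11. All 44 markers passed the filter, Mcemp1, Ear2 and Clec4e through groups where they are high. The SE printed after a log2 change was derived from that change and its F statistic, and can understate the error where a group has few counts. CPM are per library total; TPM were computed from merged exon lengths. The fits were tested on simulated data.

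The 44 genes, the role lists and the other lists were chosen with earlier results of these data known. Values per library are given for the 2 genes of each role list with the highest mean CPM, and for a gene called against most of its role list; other genes are given by range and counts, or as single values. Of the other lists, up to 4 called genes with the highest CPM are named, and 1 called in the opposite direction. Counting intervals and floors take in counting error alone, because reads lacked molecular identifiers and need not be separate molecules. Replicates of a group were not copies of each other (Pearson's r of log2 CPM 0.975 to 0.989). Counts of calls and named genes were recomputed with RLE scaling, with DESeq2 1.42.0, with a filter of 1 count alone, with only the compared groups in the fit, with the replicate number as a block and with each library of those groups left out; sums were recomputed with TMM-scaled totals and without each library. No sequence was read from a genome: promoter windows came from RefSeq, and 12 of the 44 genes without an entry were not searched. Some genes of the other lists are not reported here.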

Additional observations from a re-analysis of the deposited data

Results flagged for a closer look

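Differences between the organs in the same change, tested as such in edgeR, drew attention. The change from fibroblasts to iECs was larger in lung for 24 of the 44 genes (12.6% of all genes). That from fibroblasts to ECs was larger for 35 (16.2% of all genes). The difference of the EC changes, lung minus heart, was 3.47 on the log2 scale for C1qa and 2.88 for C1qb, each higher in lung ECs and lower in heart ECs than in the fibroblasts of that organ. For Cd14 the difference of the iEC changes was 5.15, with Cd14 lower in heart iECs and, when all lung libraries were used, higher in lung iECs. Groups of 3 were not tested for single libraries that lie apart.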

How the results depend on the processing

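Of 290 recomputed counts of called genes and summed levels, 284 stayed within 1.5 times (counts) or 1 SD (sums). Against heart fibroblasts, 3 genes were lower in heart iECs, and their number became 8 in a fit to the compared groups alone and 6 with DESeq2; leaving out 1 library gave 1 to 3. The number higher in lung iECs than in lung ECs was 0, and 0 to 1 when 1 library was left out. The summed level in heart fibroblasts was 356 CPM, and 399.8 CPM with TMM-scaled totals. In a fit to the compared groups alone, 28 of the 38 genes lower in lung iECs than in lung ECs kept their call.

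Of 1146 recomputed values for named genes, 1093 kept direction and call, 32 lost a call, 15 gained one and 6 changed sign. The changes of sign were all in lung iECs against lung fibroblasts, in values not called over all libraries: leaving out 1 library gave -0.0609 to 0.198 for Chil3 (-0.0071 without lung fibroblast replicate 2), -0.0092 to 0.485 for Mcemp1, -0.27 to 0.30 for Ear2 and -0.454 to 0.123 for Csf1 (0.003 without lung iEC replicate 1). The causes were not tested. Siglec1 in lung iECs lost its call in the fit to the compared groups alone (edgeR adjusted p = 0.0592).

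Libraries that share a replicate number did not deviate together (r from -0.398 to 0.117 over 45 pairs, and 4 of 18 libraries correlated best with their own number). No pairing by number was therefore seen, but a weak one could be missed by this check. With the replicate number as a block, 38 of 39 genes stayed called in lung iECs and 44 of 44 in lung ECs against lung fibroblasts, as did 14 of 14 in heart iECs and 21 of 23 in heart ECs. The block ended the calls of Adgre1 in heart ECs (edgeR adjusted p = 0.0513), Cd14 in lung iECs (0.0862) and F13a1 in lung iECs (0.0616). Genes with few counts in heart, such as Clec4e, Mcemp1 and Ear2, limit what those comparisons can show.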
